A study of Caenorhabditis elegans with 9 samples.

Results

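The genes described here encode the subunits of the 26S proteasome of Caenorhabditis elegans. They are all genes whose symbol in the deposited expression table begins with pas, pbs, rpn or rpt followed by a number. The rule found 33 of the 46778 genes in the table. Of these, 14 encode the core particle, with 7 pas genes for the α ring and 7 pbs genes for the β ring. The other 19 encode the regulatory particle, with 6 rpt genes for the ATPases of its base, 4 other base genes (rpn-1, rpn-2, rpn-10 and rpn-13) and 9 lid genes. The libraries were 3 of sorted oocyte P-bodies, 3 of dissected oocytes and 3 of whole animals. All 9 libraries came from females labelled fog2; car1:GFP, pgl1:RFP at day 3, and the labels give both L4 and oocyte arrest as the stage. The granules were isolated by FAPS, the sorting step named in the labels, and the whole-animal extracts had neither dissection nor sorting. The fog2 mutation, under which worms make no sperm of their own, and the fluorescent tags were shared by every group, whole animals included. Promoters of the tagged genes are not given in the sources used here. RNA was extracted with a kit for fixed tissue, with reversal of crosslinks and DNase, and a spin that removes debris was left out for P-bodies. Nothing in the labels says that replicates came from separate cultures or animals, so p-values measure only the spread between these libraries, which may be technical.

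The proteasome degrades proteins that carry ubiquitin. Its core particle is a barrel whose α rings gate the entry and whose β rings hold the protease sites, and its regulatory particle binds ubiquitin chains, removes them, unfolds the substrate with a ring of ATPases and feeds it into the barrel. In worm oocytes the proteasome is needed for the transition to the embryo, when maternal proteins are degraded. P-bodies are cytoplasmic granules of mRNA with proteins of translational repression and decay, and CAR-1, tagged here with GFP, is one of their RNA-binding proteins.

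Each library held 27946955 to 78685226 counts. The make-up of the RNA differed between groups, and ribosomal RNA genes took 29.8 to 38.0% of the P-body counts, against 86.8 to 88.8% of the oocyte counts and 91.4 to 91.7% of the whole-animal counts. For that reason each change is given relative to the typical gene (TMM scaling), where stated relative to all counts in the library, and, for the make-up of the complex, relative to the summed counts of the 33 subunit genes. Levels of single genes between groups are TMM-scaled CPM (counts brought to a common library size). All 33 genes passed the filter on low counts, as did 10162 genes in all. Counts of a single gene ran from 264 to 15877 per library, apart from rpn-6.2, which had 22 to 376. Values of pas-7, pbs-3, pbs-4, rpt-2, rpt-4, rpt-6, rpn-7, rpn-10 and rpn-11 are uncertain because another protein-coding gene overlaps each on the opposite strand, and that of pbs-7 because one overlaps it on the same strand.

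Messages of the proteasome took a smaller part of the protein-coding RNA in P-bodies than in oocytes. The 33 genes together made up 0.415, 0.396 and 0.383% of protein-coding counts in the P-body libraries. The oocyte libraries had 0.808, 0.856 and 0.814%, and the whole-animal libraries 0.654, 0.661 and 0.642%. The P-body mean was 0.398% ± 0.0159, the oocyte mean 0.826% ± 0.0258 and the whole-animal mean 0.652% ± 0.00942 (SD, n = 3 each), and the libraries of the 3 groups did not overlap. As a share of all counts, ribosomal RNA included, P-bodies moved from the lowest place to the highest. The P-body mean was then 0.263% ± 0.0122, the oocyte mean 0.0917% ± 0.0155 and the whole-animal mean 0.0487% ± 0.000901. For P-bodies against either other group, the direction thus depended on whether ribosomal RNA was in the denominator. Oocytes stood above whole animals on both scales. These are bulk samples, in which fewer cells of a type and less RNA per cell cannot be told apart.

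The comparison of P-bodies with oocytes asks how the make-up of granule RNA differs from that of the whole cell. Relative to the typical gene 31 of the 33 fell in P-bodies and none rose, at an adjusted p under 0.05 in edgeR's quasi-likelihood test. Over all genes tested 28.8% were called lower and 26.7% higher. The median log2 fold change of the 33 genes was -0.96, against -0.06 over all genes tested, and single genes ran from -1.72 to -0.13. All P-body libraries lay below all oocyte libraries for 30 of the 33, which held for 27.6% of all genes. For 16 genes the fall was at least 2-fold. The genes not called were pbs-1 and rpn-6.2, and the call of pbs-6 was not stable. Among the 23 genes that no other protein-coding gene overlaps, 21 fell, with a median of -1.01. Without oocyte library 2 the count was 29 and the median -0.79.

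Relative to all counts the same comparison had the opposite sign. All 33 messages were then higher in P-bodies, by log2 values of 0.78 to 2.40 with a median of 1.56. Over all genes 79.6% were called higher and 3.35% lower on this scale, and the median over all genes was 2.44. The change of scale moves every gene by nearly the same amount. That the median of the subunits lay below that of all genes here too is therefore no separate result. Without a filter on low counts the median relative to all counts was still 1.56 for the subunits, but 1.78 over all genes.

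**Figure D1:**
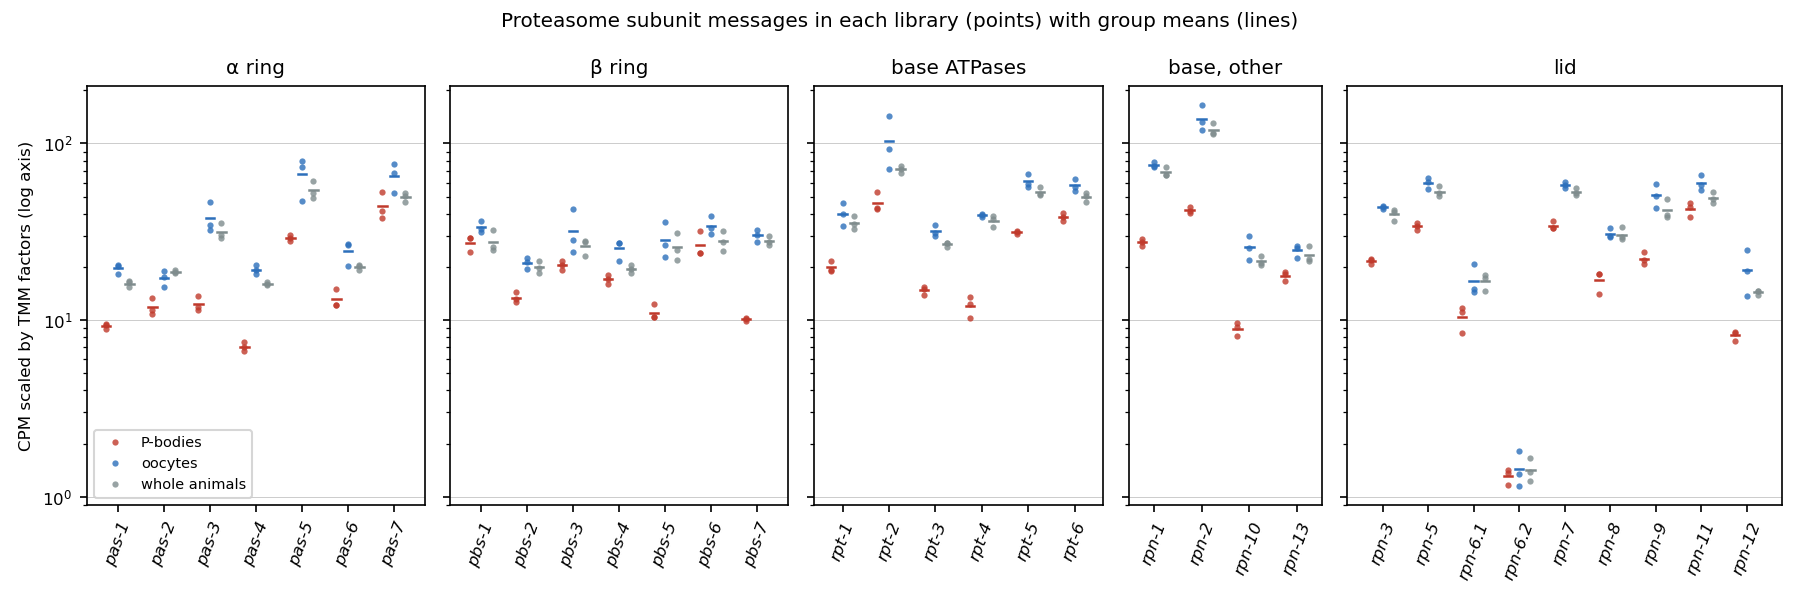
TMM-scaled CPM (log axis) of the 33 subunit genes in each library, P-bodies left, oocytes middle and whole animals right within each gene, with a line at the mean of 3 libraries. P-body points lie below all oocyte points for 30 of 33 genes, and rpn-6.2 is the lowest gene in every library.

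The α ring forms the outer gate of the core particle. Its 7 messages all fell in P-bodies against oocytes, with a median log2 fold change of -1.09. The largest fall was that of pas-3 (WBGene00003924, chromosome I, 5105110 to 5106048 on the minus strand, in build WBcel235 as are all positions here). It had 13.7, 11.8 and 11.3 CPM in P-bodies, and 34.7, 46.6 and 32.3 CPM in oocytes. The highest P-body library was well under the lowest oocyte library, and the fall was 3.08-fold (log2 fold change -1.62 ± 0.15, SE, adjusted p = 1.09e-06). For pas-4 the log2 fold change was -1.44 ± 0.10, for pas-5 -1.19 ± 0.17, for pas-1 -1.09 ± 0.10 and for pas-6 -0.90 ± 0.13. Smaller falls were those of pas-7 (-0.57 ± 0.15, adjusted p = 0.00621) and pas-2 (-0.55 ± 0.12, adjusted p = 0.00137). The pas-7 libraries overlapped, with 37.8, 53.0 and 41.5 CPM in P-bodies and 68.2, 76.4 and 52.3 CPM in oocytes. The call of pas-7 was lost without oocyte library 2 (-0.34, adjusted p = 0.0636), and that of pas-2 when no filter on low counts was used (-0.32, adjusted p = 0.0702).

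The β ring holds the protease sites, on the subunits encoded by pbs-1, pbs-2 and pbs-5, which correspond to β1, β2 and β5 of yeast and human. Of its 7 messages 6 fell, with a median of -0.63. The message of pbs-5 had 10.4, 12.3 and 10.4 CPM in P-bodies against 22.8, 35.9 and 26.7 CPM in oocytes, a log2 fold change of -1.36 ± 0.17 (adjusted p = 2.35e-05). That of pbs-1 (WBGene00003947, chromosome IV, 1708814 to 1709745, minus strand) had 29.0, 29.0 and 24.1 CPM in P-bodies against 32.7, 36.4 and 31.6 CPM in oocytes. Its libraries did not overlap, but its log2 fold change of -0.29 ± 0.12 was not called (adjusted p = 0.0587). With a replicate block it was called (-0.30, adjusted p = 0.0438). The third catalytic subunit, pbs-2, lay between them at -0.66 ± 0.11 (adjusted p = 0.000169).

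Among the β subunits without a protease site, pbs-7 had the largest fall. It stood at 10.2, 10.3 and 9.89 CPM in P-bodies, against 27.7, 32.5 and 30.2 CPM in oocytes (log2 fold change -1.57 ± 0.10, 2.98-fold lower, adjusted p = 6.83e-08). The fall of pbs-3 was -0.63 ± 0.17 and that of pbs-4 -0.58 ± 0.11. At the other end pbs-6 had 24.0, 31.9 and 24.1 CPM in P-bodies, against 38.6, 33.3 and 30.7 CPM in oocytes. P-body library 2 lay within the range of the oocyte libraries, and the log2 fold change was -0.36 ± 0.14 (adjusted p = 0.0466). This call was lost without a filter on low counts (-0.14, adjusted p = 0.490), in DESeq2 (-0.37, adjusted p = 0.0512) and without any single library other than P-body library 2 or oocyte library 3 (adjusted p = 0.0565 to 0.207).

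The 6 ATPases of the base, which unfold the substrate, all fell, with a median of -1.06. For rpt-4 (WBGene00004504, chromosome II, 42207 to 46216, minus strand) there were 13.5, 10.2 and 12.4 CPM in P-bodies and 38.5, 39.3 and 40.0 CPM in oocytes. The groups stood far apart, and the fall was 3.26-fold (log2 fold change -1.71 ± 0.11, adjusted p = 1.09e-07). The ATPase next in size of change was rpt-2, at -1.15 ± 0.21, whose oocyte libraries spread from 72.1 to 143 CPM. Log2 fold changes of -1.11 ± 0.10 for rpt-3, -1.01 ± 0.12 for rpt-1 and -0.96 ± 0.10 for rpt-5 followed. The smallest fall in the ring was that of rpt-6, with 36.4, 40.4 and 38.2 CPM in P-bodies and 56.6, 63.2 and 53.6 CPM in oocytes (-0.59 ± 0.10, adjusted p = 0.00022). Within this ring of subunits the log2 fold changes thus ran from -1.71 to -0.59. For all 6 every P-body library lay below every oocyte library, as for 27.6% of all genes. Both ends of this range, rpt-4 and rpt-6, have uncertain values, as another gene overlaps each on the opposite strand.

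The other 4 base messages had the lowest median of any sub-group, -1.49. In this sub-group rpn-1 and rpn-2 encode the large scaffold subunits, and rpn-10 and rpn-13 encode receptors for ubiquitin. The largest fall of all 33 genes was that of rpn-2 (WBGene00004459, chromosome III, 6199184 to 6202594, plus strand). It had 40.6, 41.6 and 43.4 CPM in P-bodies, against 131, 165 and 118 CPM in oocytes, a 3.3-fold fall (log2 fold change -1.72 ± 0.13, adjusted p = 2.05e-07). The other scaffold message, rpn-1, fell by 1.45 ± 0.09 on the log2 scale (adjusted p = 7.27e-08).

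Of the ubiquitin receptors, rpn-10 stood near the lowest values and rpn-13 near the highest. In P-bodies rpn-10 had 9.58, 8.08 and 9.13 CPM, against 21.8, 29.96 and 25.7 CPM in oocytes (log2 fold change -1.53 ± 0.13, adjusted p = 5.86e-07). The message of rpn-13 had 18.3, 18.8 and 16.5 CPM in P-bodies against 25.6, 22.3 and 26.4 CPM in oocytes (-0.47 ± 0.11, adjusted p = 0.00309). Both were lower in every P-body library than in any oocyte library. The call of rpn-13 was lost without a filter on low counts (-0.25, adjusted p = 0.150).

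The lid removes ubiquitin chains from the substrate. Of its 9 messages 8 fell, with a median of -0.82. The deubiquitinase itself, rpn-11, had 43.4, 46.0 and 38.3 CPM in P-bodies and 58.2, 66.1 and 54.2 CPM in oocytes, a log2 fold change of -0.48 ± 0.11 (adjusted p = 0.00251). Its partner rpn-8, which shares its fold but has no active site, was at -0.87 ± 0.12. The call of rpn-11 was lost without a filter on low counts (-0.26, adjusted p = 0.0845). The other lid subunits that fell were at -1.22 ± 0.17 for rpn-12, -1.19 ± 0.13 for rpn-9, -1.01 ± 0.09 for rpn-3, -0.82 ± 0.10 for rpn-5, -0.76 ± 0.09 for rpn-7 and -0.69 ± 0.17 for rpn-6.1.

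The worm has a pair of genes for the lid subunit Rpn6, and rpn-6.2 was the least abundant of all 33 genes. It had 366, 347 and 376 counts in P-bodies, 42, 23 and 68 counts in oocytes and 35, 22 and 40 counts in whole animals. Scaled, these were 1.36, 1.16 and 1.42 CPM in P-bodies against 1.81, 1.14 and 1.34 CPM in oocytes. The ranges overlapped, and the log2 fold change of -0.13 ± 0.31 was not called (adjusted p = 0.752). Its sign turned without oocyte library 1 (0.09) and without a filter on low counts (0.10). With so few counts its standard error was the largest of the 33 genes.

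**Figure D2:**
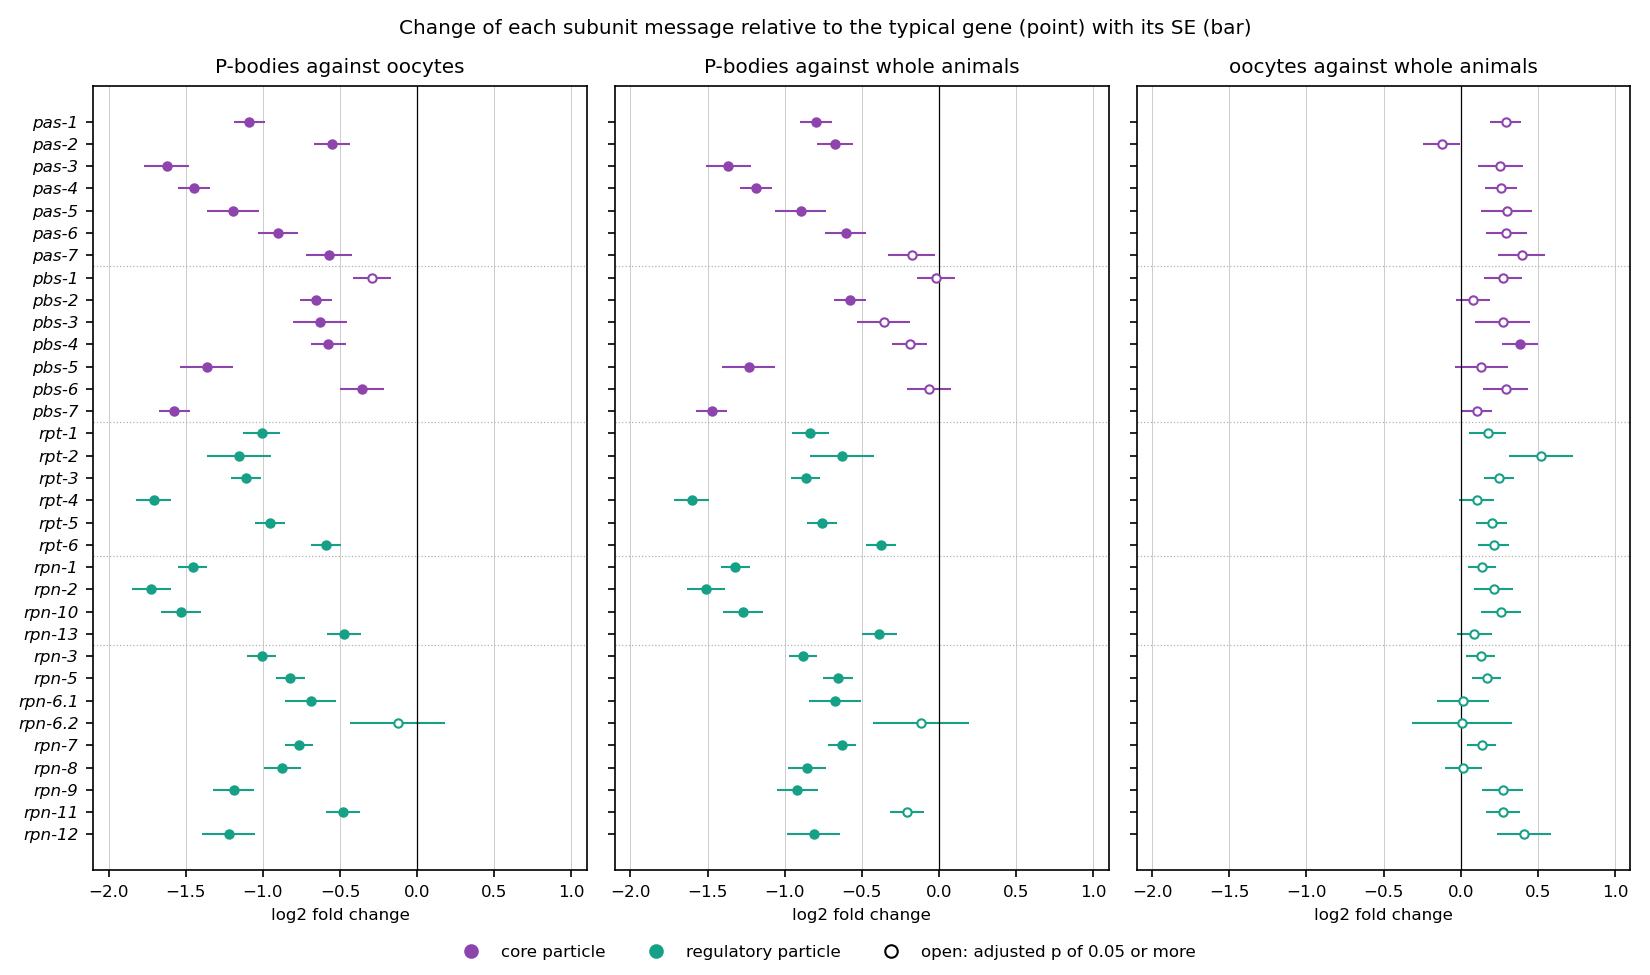
Log2 fold change relative to the typical gene of each subunit gene in the 3 comparisons, with its standard error as a bar. Core particle genes are purple, regulatory particle genes green, and open points have an adjusted p of 0.05 or more. In P-bodies against oocytes all 33 points lie between -1.72 and -0.13, and in oocytes against whole animals between -0.12 and 0.52.

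Against whole animals, which also hold somatic tissue, 26 of the 33 messages were lower in P-bodies relative to the typical gene and none was higher. Over all genes 38.9% were called lower in this comparison and 27.9% higher. The median over the 33 genes was -0.76, against -0.18 over all genes. Without a filter on low counts it was -0.50, against -0.25 over all genes, and with only these groups fitted -0.51, against 0.09 over all genes. The 7 messages not called were those of pas-7, pbs-1, pbs-3, pbs-4, pbs-6, rpn-6.2 and rpn-11, with log2 fold changes of -0.36 (pbs-3, adjusted p = 0.0867) to -0.02 (pbs-1). In the β ring 3 of 7 were called, and in the rest of the complex 23 of 26. The values of rpt-4 (-1.60 ± 0.11), rpn-2 (-1.51 ± 0.13) and pbs-7 (-1.47 ± 0.10) were the lowest. At the other end pbs-1 had 29.0, 29.0 and 24.1 CPM in P-bodies, against 32.4, 25.01 and 25.8 CPM in whole animals (-0.02 ± 0.12, adjusted p = 0.901). The calls of rpt-6 and rpn-13 in this comparison were lost without a filter on low counts, and when only P-bodies and whole animals were fitted, and that of rpn-13 also without whole-animal library 1. That of rpt-2 was lost without P-body library 1 or 3 or whole-animal library 1 or 3.

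Relative to all counts the 33 messages were all higher in P-bodies than in whole animals, with a median of 2.43, where 76.6% of all genes were called higher and 9.73% lower, and the median gene was at 3.00. The order of these medians depended on the processing. Without a filter on low counts the subunits were at 2.43 and all genes at 1.66, and limma on log2(TPM + 1) gave 2.08 for the subunits and 2.05 for all genes. This comparison and that with oocytes share the P-body libraries, so their values are set side by side here and are not independent.

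Few subunit messages were called between dissected oocytes and whole animals. Relative to the typical gene 1 of 33 was called higher in oocytes and none lower, where 0.709% of all genes were called higher and 12.5% lower. The median was 0.21 against 0.00 over all genes, and 32 of the 33 values were above 0. For 9 genes every oocyte library lay above every whole-animal library, as for 7.83% of all genes. At an unadjusted p under 0.05 10 messages were higher and 0 lower, against 6.06% of all genes higher and 19.6% lower. DESeq2 called 5 higher and 0 lower, where it called 3.58% of all genes higher and 15.1% lower. The called message was pbs-4, with 27.4, 27.4 and 21.6 CPM in oocytes against 18.6, 20.4 and 19.4 CPM in whole animals (log2 fold change 0.39 ± 0.12, adjusted p = 0.0453). Its libraries did not overlap, yet its call was lost without any single library other than oocyte library 3. With protein-coding counts as the library size 14 of 33 were called higher, as were 6.32% of all genes. That scaling moved the median over all genes to 0.13 and the median of the 33 genes to 0.33. Relative to all counts 32 of 33 were higher in oocytes, where 51.9% of all genes were called higher and 11.8% lower, and the median was 0.90 against 0.68 over all genes.

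Within the complex, the messages of P-bodies stood in other proportions than those of oocytes. Set against the summed counts of the 33 genes, 9 messages were higher in P-bodies than in oocytes, 8 were lower and 16 were not called. The scale is fixed by the genes themselves, so a gain of some members must stand beside a loss of others. On the same scale 52.4% of all genes were called higher and 10.4% lower. The P-body and oocyte libraries did not overlap for 10 genes on the higher side and 9 on the lower, against 58.3% and 9.5% of all genes. The standard deviation between the 33 log2 fold changes was 0.43 in P-bodies against oocytes and 0.13 in oocytes against whole animals. Over all genes it was larger in both, at 1.73 and 1.47.

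Members that took a larger share in P-bodies were pbs-1, pbs-6 and pbs-4 of the β ring, pas-2 and pas-7 of the α ring, the ATPase rpt-6, the receptor rpn-13, the deubiquitinase rpn-11 and rpn-6.2. The message of pbs-1 made up 4.15, 3.99 and 3.53% of subunit counts in P-bodies, against 2.35, 2.40 and 2.49% in oocytes (log2 fold change 0.69 ± 0.11, adjusted p = 9.87e-05). That of pbs-6 was at 3.44, 4.39 and 3.53% in P-bodies, against 2.78, 2.20 and 2.42% in oocytes (0.62 ± 0.13, adjusted p = 0.000856). For rpn-11 the shares were 6.22, 6.32 and 5.61% in P-bodies and 4.19, 4.35 and 4.27% in oocytes (0.50 ± 0.09, adjusted p = 0.000281). In each of these 3 genes every P-body library was above every oocyte library. The remaining values were 0.85 ± 0.34 for rpn-6.2, 0.50 ± 0.13 for rpn-13, 0.42 ± 0.15 for pas-2, 0.42 ± 0.12 for pas-7, 0.41 ± 0.12 for pbs-4 and 0.39 ± 0.09 for rpt-6. The call of pas-2 was lost without P-body library 1 or 3 or oocyte library 1 or 2. That of rpn-6.2 was lost without any single library other than oocyte library 1 or whole-animal library 1.

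Members that took a smaller share in P-bodies were the base genes rpn-2, rpn-10 and rpn-1, the ATPase rpt-4, the α subunits pas-3 and pas-4, and the β subunits pbs-7 and pbs-5. The scaffold message rpn-2 made up 5.81, 5.72 and 6.36% of subunit counts in P-bodies and 9.46, 10.9 and 9.33% in oocytes (log2 fold change -0.73 ± 0.09, adjusted p = 9.71e-06). For rpt-4 the shares were 1.93, 1.41 and 1.81% in P-bodies against 2.77, 2.59 and 3.15% in oocytes (-0.73 ± 0.14, adjusted p = 0.000405). The share of pas-3 was 1.96, 1.62 and 1.66% in P-bodies against 2.49, 3.07 and 2.54% in oocytes (-0.63 ± 0.13, adjusted p = 0.000548). None of the 3 overlapped between groups. The others were at -0.59 ± 0.12 for pbs-7, -0.54 ± 0.14 for rpn-10, -0.48 ± 0.10 for rpn-1, -0.47 ± 0.14 for pas-4 and -0.38 ± 0.15 for pbs-5, whose libraries overlapped. That call did not hold without P-body library 1 or 3, oocyte library 2 or 3 or whole-animal library 2. Of the 23 genes that no other protein-coding gene overlaps, 5 were higher and 5 lower.

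Against whole animals 8 messages took a larger share in P-bodies and 8 a smaller one, where 46.4% of all genes were called higher and 25.5% lower. The higher ones were pbs-1 (0.74 ± 0.11), pbs-6 (0.69 ± 0.13), pas-7 (0.58 ± 0.12), pbs-4 (0.56 ± 0.12), rpn-11 (0.55 ± 0.09), pbs-3 (0.40 ± 0.17), rpt-6 (0.38 ± 0.09) and rpn-13 (0.37 ± 0.13). The lower ones were rpt-4 (-0.85 ± 0.14), rpn-2 (-0.75 ± 0.10), pbs-7 (-0.72 ± 0.12), pas-3 (-0.61 ± 0.13), rpn-1 (-0.56 ± 0.10), rpn-10 (-0.51 ± 0.14), pbs-5 (-0.47 ± 0.15) and pas-4 (-0.43 ± 0.14). Again these values rest on the same P-body libraries as those against oocytes. The call of pbs-3 was lost without any 1 of the 6 libraries compared, that of rpn-13 without P-body library 1 or 2 or whole-animal library 2 or 3, and that of pbs-5 without whole-animal library 1.

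Between oocytes and whole animals no subunit message changed its share at an adjusted p under 0.05, where 0.059% of all genes were called higher and 15.9% lower. DESeq2 was not run on this scale. Log2 fold changes ran from -0.34 for pas-2 to 0.27 for rpt-2. In edgeR's test 0 genes had an unadjusted p under 0.05 in the higher direction and 1, pas-2, in the lower, against 0.807% and 25.4% of all genes. With standard errors of 0.09 to 0.35 per gene, small shifts in proportion could not be seen at this number of libraries.

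**Figure D3:**
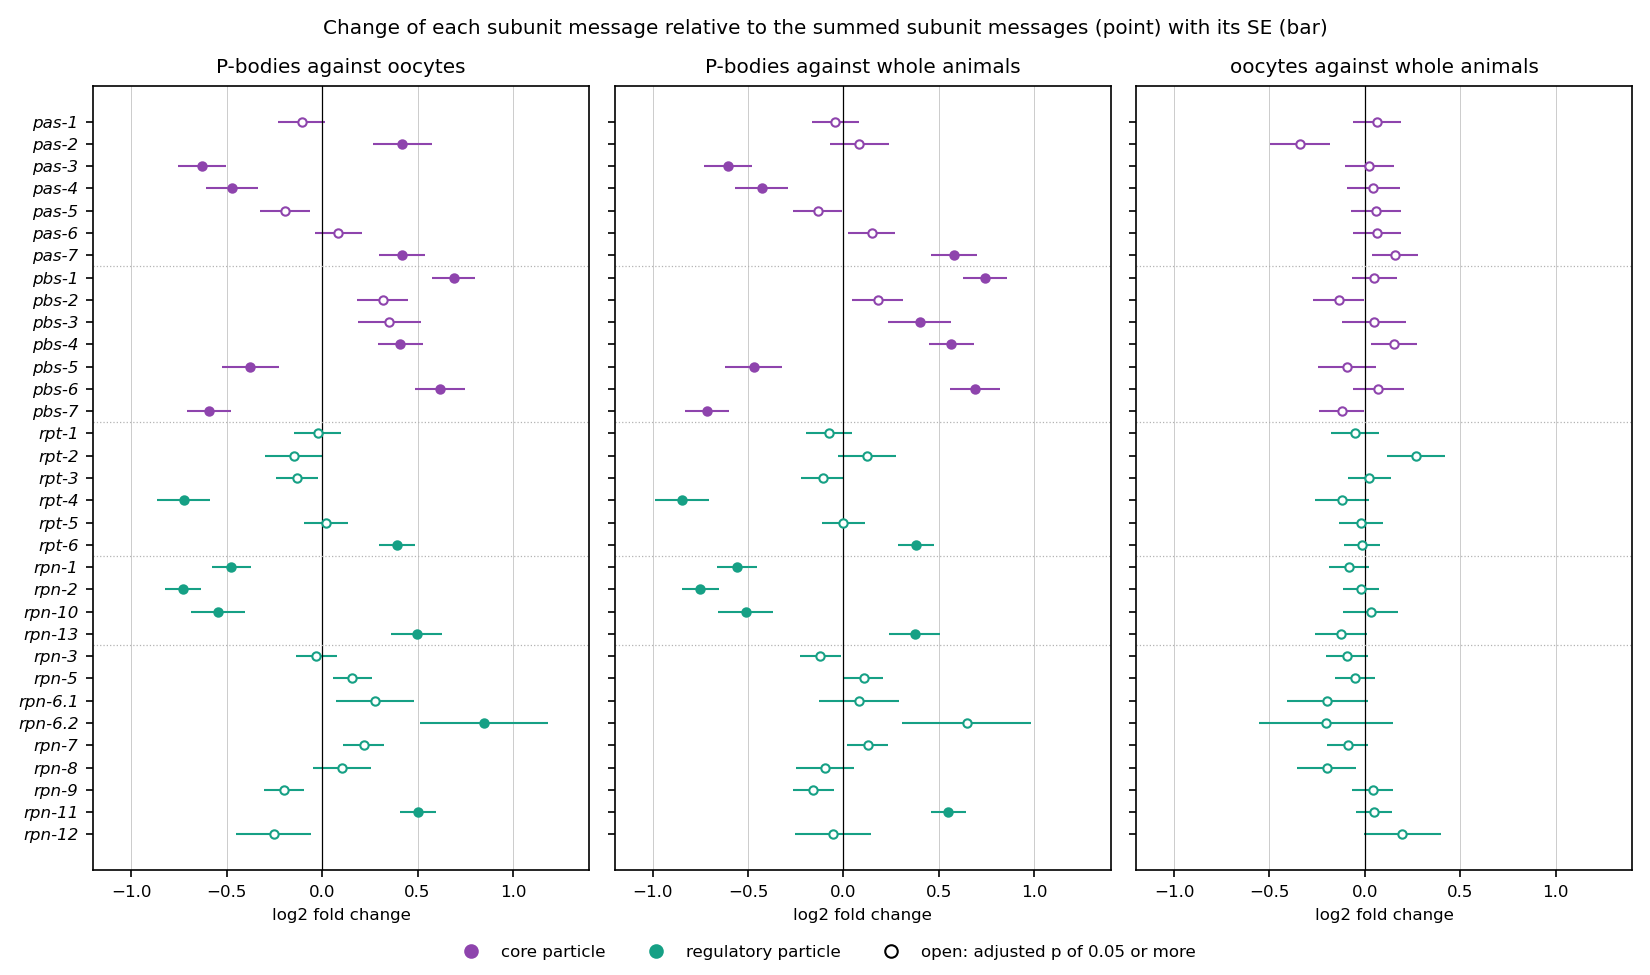
Log2 fold change of each subunit gene relative to the summed counts of the 33 genes, with its standard error as a bar, in the 3 comparisons. Filled points have an adjusted p under 0.05. The points spread from -0.73 to 0.85 in P-bodies against oocytes and from -0.34 to 0.27 in oocytes against whole animals, where all are open.

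The balance between core and regulatory particle was compared per length, as the ratio of summed TPM (transcript abundance scaled by gene length and library). The P-body libraries had ratios of 0.950, 1.03 and 0.923, the oocyte libraries 0.926, 0.876 and 0.809, and the whole-animal libraries 0.891, 0.847 and 0.816. The P-body mean was 0.969 ± 0.0570, the oocyte mean 0.870 ± 0.0585 and the whole-animal mean 0.852 ± 0.0377 (SD, n = 3 each). P-bodies had the highest mean, but their lowest library was below the highest oocyte library. Relative to the typical gene, 13 of 14 core messages and 18 of 19 regulatory messages fell in P-bodies against oocytes, with medians of -0.78 for the core and -1.01 for the regulatory particle. The difference between the medians was not tested.

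Among the sub-groups, the summed shares of the β ring and of the base genes other than ATPases stood apart in P-bodies. The β ring took 25.3, 25.8 and 24.0% of the summed subunit TPM in P-bodies, against 21.8, 20.2 and 21.2% in oocytes and 21.8, 21.5 and 20.3% in whole animals. The base genes other than ATPases took 7.64, 6.99 and 7.65% in P-bodies, against 9.45, 9.99 and 10.5% in oocytes and 10.6, 9.83 and 10.6% in whole animals. For both sums the P-body libraries stood apart from all others, on opposite sides. Not every member moved with its sum. The mean share of rpn-13 was higher in P-bodies (2.27%) than in oocytes (1.70%), while those of rpn-1, rpn-2 and rpn-10 were lower. In the β ring pbs-5 (1.83% against 2.49%) and pbs-7 (1.87% against 2.97%) were lower. The means of pbs-1, pbs-2, pbs-3, pbs-4 and pbs-6 were higher. Values of pbs-3, pbs-4, pbs-7 and rpn-10 are uncertain because of overlapping genes. The ATPases took 19.5% ± 0.116 in P-bodies, against 21.1% ± 0.916 in oocytes and 20.5% ± 0.908 in whole animals, and the P-body libraries overlapped those of whole animals. The α ring took 24.1% ± 0.819 in P-bodies, against 25.4% ± 1.64 in oocytes and 24.8% ± 0.457 in whole animals. The lid took 23.9% ± 1.07 in P-bodies, against 22.5% ± 1.54 in oocytes and 23.2% ± 0.413 in whole animals. For the α ring and the lid the libraries overlapped.

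**Figure D4:**
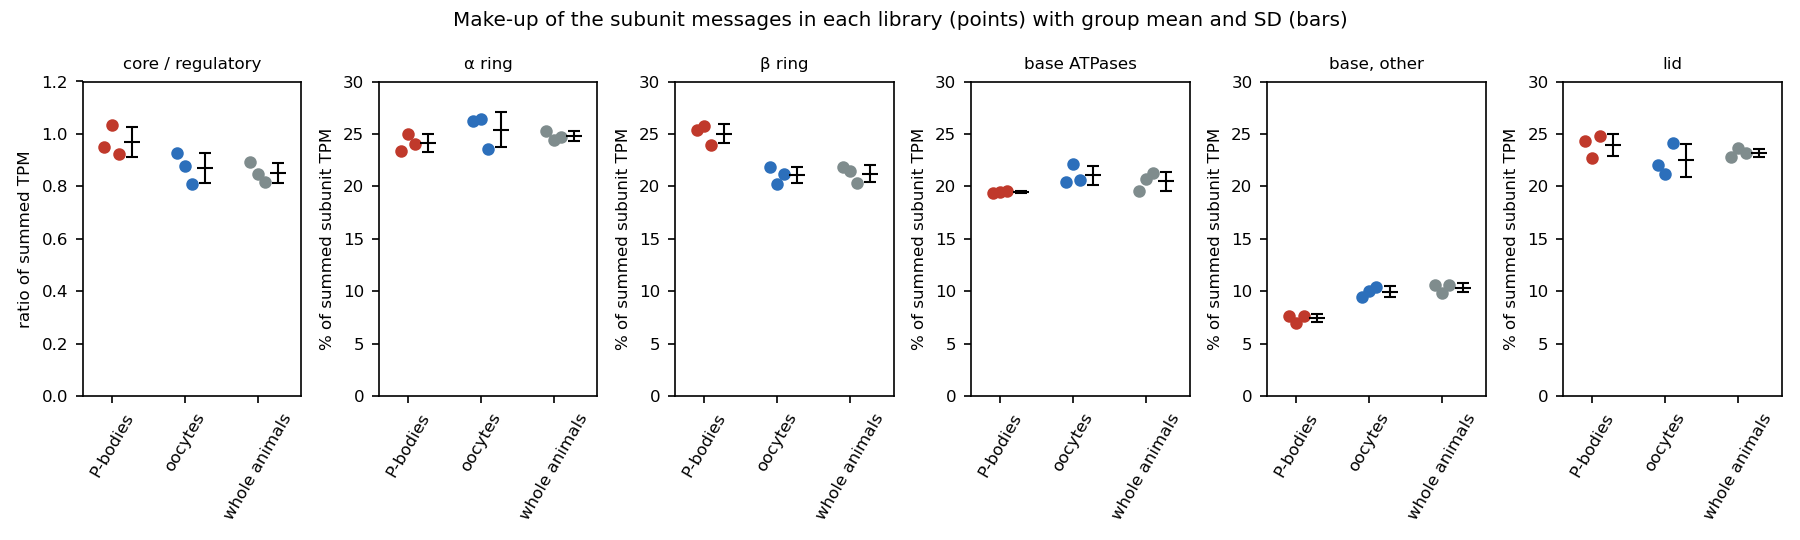
Ratio of summed TPM of core over regulatory particle genes, and the percentage of the summed subunit TPM taken by each sub-group, in each library (points), with the group mean and SD (bars, n = 3). The β ring takes 24.0 to 25.8% in P-bodies and at most 21.8% in the other groups, and the base genes other than ATPases take 6.99 to 7.65% in P-bodies and at least 9.45% elsewhere.

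The messages of the subunits stood at unequal levels per length within each group. Leaving out rpn-6.2, the highest message lay 5.41 to 10.3 times above the lowest in P-bodies, against 4.50 to 11.2 times in oocytes and 5.57 to 7.82 times in whole animals. In P-bodies pas-7 was the highest, at 339 ± 72.7 TPM, followed by rpn-11 at 284 ± 31.2 TPM and pas-5 at 253 ± 19.7 TPM. In oocytes pas-5 (118 ± 46.4 TPM), rpt-2 (107 ± 59.7 TPM) and pas-7 (103 ± 35.3 TPM) led, and their libraries overlapped. The first 3 in whole animals were pas-5 (60.5 ± 9.58 TPM), pas-7 (49.7 ± 4.97 TPM) and rpt-2 (46.0 ± 3.81 TPM). At the low end rpn-6.1 ranked 32nd in every group, and its paralog rpn-6.2 ranked 33rd. In P-bodies rpn-6.1 had 48.204 ± 6.57 TPM and rpn-6.2 had 6.503 ± 0.586 TPM. In oocytes rpn-6.1 had 14.7 ± 4.02 TPM and rpn-6.2 had 1.47 ± 0.0870 TPM, and in whole animals they had 9.60 ± 0.391 and 0.955 ± 0.162 TPM. These TPM values rank genes within a group. Between groups they follow the share of all counts, and no change is read from them.

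The order of the levels moved for some genes. The message of pas-2 ranked 14th in P-bodies and 30th in oocytes, that of rpn-13 20th in P-bodies and 31st in oocytes, and that of pbs-2 18th in P-bodies and 28th in oocytes. In the other direction pas-3 ranked 19th in P-bodies and 6th in oocytes, rpt-4 29th in P-bodies and 17th in oocytes, rpn-2 15th in P-bodies and 5th in oocytes, and pbs-7 24th in P-bodies and 14th in oocytes. Over the 32 genes other than rpn-6.2, the Spearman correlation of log2 TPM between group means was 0.765 for P-bodies and oocytes, 0.806 for P-bodies and whole animals and 0.967 for oocytes and whole animals. These correlations are across genes and describe the groups' means, which for a given gene share its length and sequence.

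Gene structure and position were not used by the rule. The subunit genes' median exonic length was 1235 bases, against 1533 over the 9622 protein-coding genes tested, and they had a median of 4 exons against 6. The median 3′ untranslated region was 168 bases long, against 150. None of the 33 lies on the X chromosome, which holds 12.5% of the protein-coding genes tested, while 10 lie on chromosome I, 7 on II, 8 on III, 3 on IV and 5 on V. The Spearman correlation of exonic length with the log2 fold change of P-bodies against oocytes was -0.154 over the 33 genes and -0.0394 over the protein-coding genes tested. The longest messages were those of rpn-1 (3171 bases) and rpn-2 (3166 bases), which had log2 fold changes of -1.45 and -1.72, and the shorter messages of pas-3 (893 bases) and pbs-7 (878 bases) had -1.62 and -1.57.

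The pathway around the proteasome was described by a list of 38 genes, all of which were tested. Relative to the typical gene 6 were higher in P-bodies than in oocytes and 16 lower, and 16 were not called. Over all genes 26.7% were called higher and 28.8% lower. Their median was -0.28, against -0.96 for the subunits and -0.06 over all genes. Relative to all counts 36 were higher and 1 lower, where 79.6% of all genes were called higher and 3.35% lower. All 3 genes that supply and activate ubiquitin fell. The message of ubq-2, which encodes ubiquitin fused to a ribosomal protein, was at 4.18 ± 0.639 CPM in P-bodies and 36.4 ± 10.1 CPM in oocytes (log2 fold change -3.12 ± 0.20, adjusted p = 1.23e-07). The polyubiquitin gene ubq-1 was at 317 ± 49.95 CPM in P-bodies and 656 ± 184 CPM in oocytes (-1.05 ± 0.20, adjusted p = 0.000747). The only E1 enzyme gene in the list, uba-1, fell by 1.49 ± 0.10 on the log2 scale (adjusted p = 8.95e-08).

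Shuttles, proteasome-bound factors, genes of the CDC-48 segregase and E2 enzymes were mixed. Of 10 shuttles and proteasome-bound factors 6 fell and 1 rose. The deubiquitinase usp-14, which binds the base, was at 14.96 ± 0.935 CPM in P-bodies and 41.5 ± 3.68 CPM in oocytes (log2 fold change -1.47 ± 0.10, adjusted p = 1.37e-07). Of 10 genes of the CDC-48 segregase, which pulls ubiquitin-marked proteins out of complexes, 5 fell and 1 rose. Its ATPase genes cdc-48.1 (-1.29 ± 0.13, adjusted p = 2.89e-06) and cdc-48.2 (-0.60 ± 0.12, adjusted p = 0.000747) were lower in P-bodies, but its cofactor gene ubxn-4 was higher, at 68.3 ± 2.83 CPM in P-bodies and 33.6 ± 2.096 CPM in oocytes (1.02 ± 0.09, adjusted p = 1.03e-06). Of 10 E2 enzyme genes 2 rose and 2 fell. Over all genes 26.7% were called higher and 28.8% lower, and these short lists were not tested against those shares.

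Of 5 genes that regulate the expression of proteasome subunits 2 rose and none was called lower, against 26.7% and 28.8% of all genes. Their median was 0.19. The transcription factor gene skn-1, whose product drives subunit genes when the proteasome is impaired, was at 127 ± 7.24 CPM in P-bodies and 59.7 ± 5.68 CPM in oocytes (log2 fold change 1.09 ± 0.10, adjusted p = 1.32e-06). The genes for the enzymes that process SKN-1 in that response, ddi-1 (-0.16 ± 0.14, adjusted p = 0.351) and png-1 (-0.29 ± 0.16, adjusted p = 0.134), were not called. With a stricter filter png-1 was called lower (-0.39, adjusted p = 0.0433), and the sign of ddi-1 turned without oocyte library 2 or without a filter on low counts. Against whole animals 8 of the 38 genes were higher in P-bodies and 14 lower, where 27.9% of all genes were called higher and 38.9% lower, so these counts show nothing particular to the list. Between oocytes and whole animals 0 were called in either direction by edgeR's test, and 4 were higher and 0 lower at an unadjusted p under 0.05, against 6.06% of all genes higher and 19.6% lower. DESeq2 called 4 higher and 0 lower, against 3.58% of all genes higher and 15.1% lower.

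**Figure D5:**
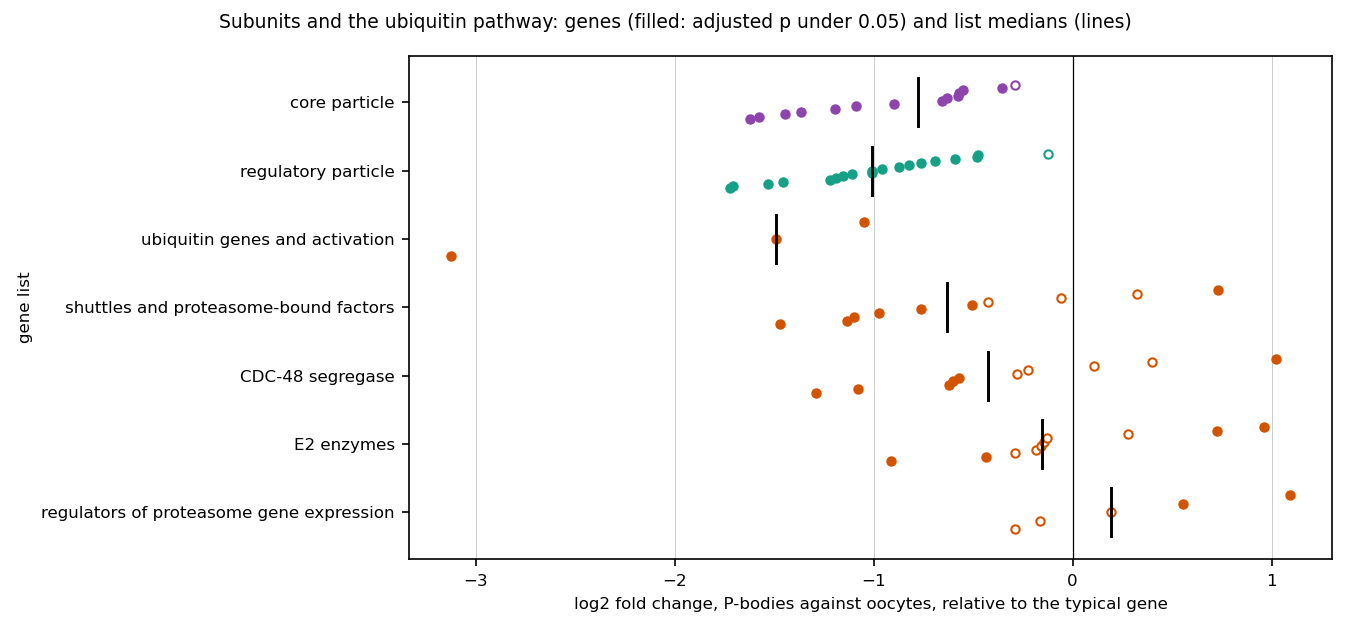
Log2 fold change of P-bodies against oocytes relative to the typical gene for the core and regulatory particle genes and for 5 lists of the ubiquitin pathway. Each point is a gene, filled where the adjusted p is under 0.05, and lines are list medians, from -1.49 for ubiquitin genes and activation to 0.19 for the regulators of proteasome gene expression.

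Other large complexes also had messages below the typical gene in P-bodies against oocytes. Over all genes 28.8% were called lower and 26.7% higher, with a median of -0.06. All 6 genes of the COP9 signalosome, which is built on the same plan as the lid, fell, with a median log2 fold change of -0.72. For initiation factor 3, which shares subunit families with both, 8 of 11 fell and the median was -0.53. All 8 genes of the chaperonin fell, with a median of -1.65, and of 77 ribosomal protein genes 76 fell and 1 rose, with a median of -3.04. The median of the subunits, -0.96, was between those of the COP9 signalosome and the chaperonin. These lists were not tested against each other.

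Markers of some cell types, though not of neurons, differed clearly between the groups, and their part in the results was not tested. The summed level of 8 oocyte markers was 6634 to 7062 TPM, rescaled to protein-coding genes alone, in P-bodies, against 7428 to 8309 in oocytes and from 6078 to 6695 in whole animals, and all 8 had counts in every library. The 7 intestine markers summed to 764 to 1408 in P-bodies, against 1291 to 4499 in oocytes and from 27738 to 32915 in whole animals. Body wall muscle markers, 6 genes, summed to 100.1 to 140.02 in P-bodies, against 308 to 755 in oocytes and from 1330 to 1739 in whole animals. The 5 hypodermis markers summed to 12.1 to 33.0 in P-bodies, against 23.9 to 293 in oocytes and from 496 to 749 in whole animals. The 5 neuron markers summed to 152 to 190.3 in P-bodies, against 167 to 173 in oocytes and from 173 to 199.5 in whole animals. The 3 gonadal sheath markers found summed to 0.862 to 1.26 in P-bodies, against 0 to 7.63 in oocytes and from 4.21 to 9.17 in whole animals. In the library with the fewest detected, counts were found in oocytes for 6 of the intestine, 2 of the hypodermis and 2 of the neuron markers. Intestine, muscle and hypodermis markers were thus highest in whole animals. The 5 sperm markers were at or near 0 in P-bodies and oocytes, with highest values of 0.562 in P-bodies, against 0.653 in oocytes and 15.9 in whole animals. Among the oocyte libraries, the lowest intestine level, 1291, and the lowest muscle level, 308, were those of library 2. The lowest hypodermis level, 23.9, was that of library 3.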

How the data were processed

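The deposited table of raw counts per gene was made by the authors from paired-end reads of a stranded total-RNA kit (10 ng input), per the labels' protocols; HISAT2 2.1.0, HTSeq, StringTie and build WBcel235 are named in the submitters' processing notes, and the strand setting of the counting is not given in the sources used here. The deposited StringTie table gives TPM, used for levels, and FPKM and coverage, which were not used. Deposited TPM values include ribosomal RNA genes. Counts and TPM were joined by gene ID, and positions, exons and overlaps came from Ensembl annotation 115, which holds 46603 of the 46778 IDs.

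Genes were kept by edgeR's filterByExpr (minimum count 10, minimum total 15). All 9 libraries entered 1 quasi-likelihood fit in edgeR 4.0.16 (R 4.3.3) with 6 residual degrees of freedom, and p-values were adjusted over all 10162 genes by the Benjamini-Hochberg method at 0.05. The same fit was run with TMM factors, with library totals, and with the summed subunit counts as library size. Standard errors were derived from the test, as the absolute log2 fold change divided by the square root of its F statistic. The code was tested on simulated data drawn from the same average profile for all groups. That test did not cover the difference in ribosomal RNA between groups, on which the scaling depends. Each gene is named because the rule found it. The members, and the pathway, complex and marker lists, were chosen with earlier results of these data known.

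Replicate numbers are shared between groups in the labels. Deviations from the group means of same-numbered P-body and oocyte libraries correlated at 0.133, 0.238 and 0.35. Differently numbered pairs of these groups ran from -0.529 to 0.365, so the values do not settle whether libraries were paired. The main fit used no pairing. Same-numbered P-body and whole-animal libraries correlated at -0.171, -0.183 and 0.259, and those of oocytes and whole animals at -0.107, -0.26 and 0.239. Alternatives used DESeq2 1.42.0, its size factors, limma 3.58.1 on log2(TPM + 1) and log2(TPM + 0.1), other filters, a replicate block, and each library left out. Library totals of 27946955 to 78685226 counts set the precision, and intervals cover counting error and library spread only.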

Additional observations from a re-analysis of the deposited data

How the results depend on the processing

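The count of subunit messages that fell in P-bodies against oocytes, 31, was 27 without a filter on low counts, 30 in DESeq2, 32 with a replicate block, protein-coding counts as library size or a stricter filter, and 29 to 31 with 1 library left out. In the main fit 28.8% of all genes were called lower, and the shares under those other settings are not given here. The median of the subunits was -0.73 without a filter, against 0.04 over all genes, and -0.96 in DESeq2, against -0.07. The replicate block matched libraries by number in all groups, which the labels do not state to be pairs. Under it pbs-1 became a call (-0.30). Relative to the summed members the counts were then 10 higher and 8 lower, against 51.6% and 9.52% of all genes. Oocytes against whole animals depended most on the processing. There the 1 message called higher became 4 without a filter, 2 with DESeq2 size factors, 5 in DESeq2, 14 with protein-coding counts as library size, 0 with a stricter filter or with only these 2 groups fitted, and 0 to 5 with 1 library left out. The highest of these was without oocyte library 3. Over all genes 0.709% were called higher in the main fit, 1.64% without a filter, 1.51% with DESeq2 size factors and 3.58% in DESeq2. Protein-coding counts as library size gave 6.32%, a stricter filter 0.453%, these 2 groups alone 0.564% and 1 library left out 0.216 to 2.16%. For the pathway list in that comparison the 0 called higher became 2 without a filter, 1 with DESeq2 size factors, 4 in DESeq2, 6 with protein-coding counts as library size and 0 to 1 with 1 library left out. Against whole animals the 8 pathway genes higher in P-bodies became 13 with only those 2 groups fitted. In the main fit 27.9% of all genes were higher in that comparison. The share with only those 2 groups is not given here, so the rise is not read as particular to the list. That setting moved the median over all genes from -0.18 to 0.09. The sign turned for rpn-6.2 in P-bodies against oocytes without a filter (0.10), with a range of -0.18 to 0.089 when 1 library was left out, and for ddi-1 without a filter (0.064), with a range of -0.23 to 0.00246. From summed counts in place of TPM, the ratio of core to regulatory particle was 0.561 for P-bodies, 0.486 for oocytes and 0.473 for whole animals. As a share of all counts the subunits took 0.263% for P-bodies, 0.0917% for oocytes and 0.0487% for whole animals. The cause of these shifts was not tested. With 3 libraries a group, and 22 to 68 counts of rpn-6.2 outside P-bodies, small changes could not be seen.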
